A study of Mus musculus with 6 samples.

Results

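Fc receptors let dendritic cells take up antigen bound to IgG and decide whether such immune complexes activate or restrain the cell. The genes described here are those of the mouse activating IgG receptors (Fcgr1, CD64; Fcgr3, CD16; Fcgr4, CD16-2), the inhibitory IgG receptor (Fcgr2b, CD32b), the common gamma chain that carries the activating signal (Fcer1g) and the neonatal Fc receptor (Fcgrt, FcRn). They were chosen by symbol, and all 6 were found among the 14535 gene rows of the deposited count table. Measured was RNA of type 2 conventional dendritic cells (cDC2s) of the mouse spleen, in 3 libraries from IRF4-deficient mice, in which Cre driven by the CD11c (Itgax) promoter deletes floxed Irf4 (CD11c-Cre Irf4fl/fl), and 3 libraries from wild-type (WT) mice. All mice were of strain C57BL/6, and the labels give no age, sex or treatment. No group carries Cre alone, so effects of the transgene and of Irf4 loss cannot be told apart. The labels do not say whether replicates are separate mice, so p-values measure the spread between libraries, which may be technical.

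Activating IgG receptors bind IgG outside the cell and signal through the gamma chain, whose tail holds an immunoreceptor tyrosine-based activation motif (ITAM) that Src family kinases phosphorylate and Syk then binds. Fcgr2b carries an inhibitory motif (ITIM) in its own tail and recruits the lipid phosphatase SHIP-1 (Inpp5d). On dendritic cells the balance of the activating and inhibitory receptors sets the threshold at which immune complexes drive maturation, and the comparison of the 2 genotypes asks whether that balance differs when Irf4 is deleted.

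The genes lie in 3 places of the mouse genome (GRCm38, GENCODE M21). Fcgr2b (chromosome 1, 170958617 to 170976547, minus strand), Fcgr4 (171018920 to 171029761, plus strand), Fcgr3 (171051174 to 171064935, minus strand) and Fcer1g (171229572 to 171234365, minus strand) are neighbours. Fcgr1 is on chromosome 3 (96282909 to 96293969, minus strand) and Fcgrt on chromosome 7 (45092990 to 45103851, minus strand). Fcgr2b and Fcgr3 are close relatives: over the 781 aligned bases of their coding sequences 84.5% were identical, against 59.7 to 65.5% for the other receptor pairs. Their longest identical coding stretch, 129 bases, is shown because reads that fall inside it cannot be assigned to either gene. It spans exons 5 and 6 of the main Fcgr2b coding transcript (chr1:170966674-170968081, intron included) and exons 3 and 4 of that of Fcgr3 (chr1:171054167-171057792), both on the minus strand.
Fcgr2b and Fcgr3: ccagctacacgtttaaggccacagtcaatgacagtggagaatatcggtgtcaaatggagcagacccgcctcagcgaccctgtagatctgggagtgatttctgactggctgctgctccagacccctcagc
Reads tell the genes apart where their bases differ. Towards the end of the coding sequence the genes differ widely: of Fcgr2b coding bases 661 to 720, 55 aligned to Fcgr3 and 28 were identical. Of bases 961 to 1020 none aligned. Of the 391 gap-free windows of 60 bases that lie in 1 exon of each gene, the window with the most differences had 7, given here in capitals for Fcgr2b (chr1:170968161-170968220) and Fcgr3 (chr1:171057872-171057931).
Fcgr2b: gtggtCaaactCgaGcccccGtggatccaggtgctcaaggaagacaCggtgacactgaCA
Fcgr3: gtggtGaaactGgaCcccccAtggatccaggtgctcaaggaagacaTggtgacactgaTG
Of all 50-base windows along the main coding transcripts, 12.8% of those of Fcgr3 and 10.9% of those of Fcgr2b occurred in the other gene, and 3.53% and 2.98% of 100-base windows did. For Fcgr1, Fcgr4, Fcer1g and Fcgrt no 50-base window was shared with another gene. The sources used here give neither the read length nor the handling of shared reads, so the counts of Fcgr3 and Fcgr2b carry that uncertainty in both genotypes. Exons of the antisense gene Gm38204 also overlap those of Fcgr2b by up to 155 bases on the opposite strand, and the strand setting is not given.

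Total counts per library ranged from 7421605 to 11459920. Irf4, the targeted gene, ranged from 65.3 to 90.8 CPM (library sizes multiplied by TMM factors) in IRF4-deficient and 292 to 345 CPM in WT libraries, so each library matched its label. Of 15 cDC2 and conventional dendritic cell markers, Irf4 among them, none was at 0 in all libraries, 2 were called higher and 7 lower, and their median log2 fold change was -0.17. Cd4 fell 4.23-fold, Cd209a 2.48-fold, Zbtb46 1.92-fold and Flt3 1.65-fold. The 2 called higher were Itgam, which rose from 617 ± 41.5 to 1869 ± 131 CPM, and Itgax, from 1393 ± 37.7 to 1700.4 ± 49.2 CPM. Values per library are listed below in the order of replicates 1, 2 and 3. Libraries also held markers of red pulp macrophages, which express several Fc receptors. Over all tested genes, 20.4% were called at an adjusted p under 0.05 (edgeR's quasi-likelihood test with Benjamini-Hochberg adjustment, used for each adjusted p below unless another test is named), 9.87% higher and 10.5% lower in IRF4-deficient cells. Groups did not overlap for 35.6% of tested genes (17.5% higher and 18.1% lower), and the median log2 fold change was 0.0025.

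Of the 6 Fc receptor genes, all of which passed the filter on low counts, 2 were called higher, 0 lower and 4 were not called. The called genes were Fcgr3, 1.87-fold higher, and Fcer1g, 1.46-fold higher. Of the activating receptors 1 of 3 was called. The inhibitory Fcgr2b and the neonatal receptor Fcgrt were not called. The groups did not overlap for these 2 genes, both higher, beside 17.5% of all tested genes. With 20.4% of all tested genes called, 2 of 6 is read as no property of the family. The median log2 fold change of the 6 genes was 0.43.

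**Figure D1:**
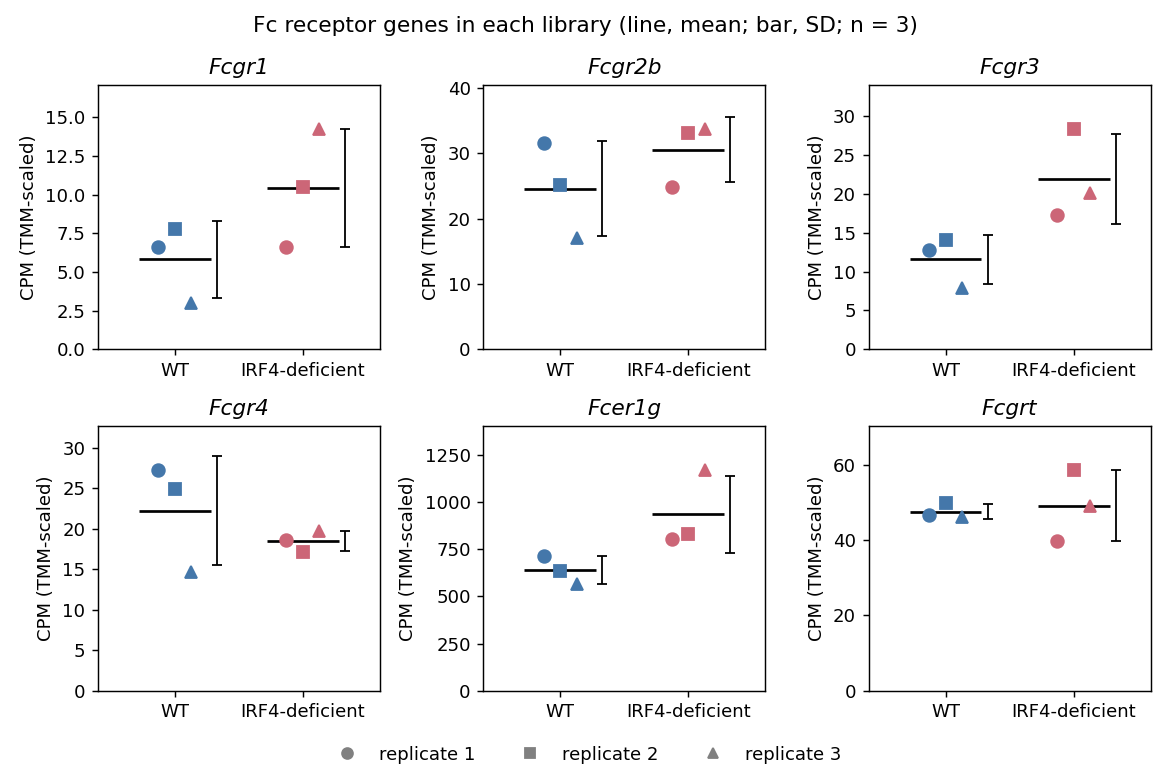
Level of each Fc receptor gene in CPM (y axis, from 0) in the 3 WT and 3 IRF4-deficient libraries, 1 point per library with the replicate number as its shape, the mean as a line and the SD as a bar. Groups are apart for Fcgr3 and Fcer1g and overlap for the other 4 genes, and WT replicate 3 is the lowest WT library in every panel.

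Fcgr3, a low-affinity activating receptor for IgG complexes, stood at 17.2, 28.3 and 20.04 CPM in the IRF4-deficient libraries, against 12.7, 14.0003 and 7.92 CPM in the WT libraries. Every IRF4-deficient library lay above every WT library, with IRF4-deficient replicate 2 highest and WT replicate 3 lowest. The mean was 21.9 ± 5.76 against 11.55 ± 3.20 CPM (SD, n = 3 each), a log2 fold change of 0.90 (SE 0.24, edgeR adjusted p = 0.012). The call was lost without IRF4-deficient replicate 2 (log2 fold change 0.69, edgeR adjusted p = 0.0865) and without WT replicate 3 (0.70, edgeR adjusted p = 0.0673). Behind these levels were 58 to 229 counts per library.

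Fcer1g, whose product is the signalling chain of Fcgr1, Fcgr3 and Fcgr4 and of other immune receptors, had 4139 to 10504 counts per library. Its level was 804, 831 and 1169.6 CPM with Irf4 deleted, against 713, 637 and 565 CPM in WT libraries. The groups did not overlap, and IRF4-deficient replicate 3 lay above the others of its group. The mean was 935 ± 204 against 638 ± 73.9 CPM (SD, n = 3 each), a log2 fold change of 0.55 (SE 0.14, edgeR adjusted p = 0.0189). The call was lost without WT replicate 2 (0.55, edgeR adjusted p = 0.0814) and without WT replicate 3 (0.47, edgeR adjusted p = 0.0576). Without IRF4-deficient replicate 3 the log2 fold change was 0.35 and the gene was still called (edgeR adjusted p = 0.00939).

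Fcgr1, the high-affinity IgG receptor typical of macrophages and monocyte-derived cells, rested on 22 to 128 counts per library. IRF4-deficient libraries held 6.63, 10.5 and 14.3 CPM, against 6.64, 7.82 and 3.005 CPM in WT libraries. IRF4-deficient replicate 1 lay within the WT range, so the groups overlapped. The log2 fold change of 0.82 (SE 0.36) did not pass (edgeR adjusted p = 0.118). It did without IRF4-deficient replicate 1 (1.08, edgeR adjusted p = 0.043). Without IRF4-deficient replicate 3 it was 0.53, and without WT replicate 3 it was 0.52.

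Fcgr4, the activating receptor for IgG2a and IgG2b complexes, had a lower mean in IRF4-deficient cells, 18.5 ± 1.27 against 22.3 ± 6.72 CPM (SD, n = 3 each), unlike the other 5 genes. Its IRF4-deficient libraries held 18.7, 17.2 and 19.7 CPM, against 27.2, 24.9 and 14.6 CPM in WT libraries. WT replicate 3 was below all IRF4-deficient libraries while the other WT libraries were above them. The log2 fold change was -0.27 (SE 0.22, edgeR adjusted p = 0.436), and -0.49 without WT replicate 3, where it was not called either (edgeR adjusted p = 0.113).

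Fcgr2b, the inhibitory receptor, had 24.8, 33.1 and 33.7 CPM in IRF4-deficient libraries, against 31.5, 25.2 and 17.1 CPM in WT libraries. The groups overlapped, since IRF4-deficient replicate 1 was below WT replicates 1 and 2. The log2 fold change of 0.31 (SE 0.21) was not called (edgeR adjusted p = 0.333), and it was 0.11 without WT replicate 3. Fcgrt, which salvages IgG from endosomes and moves it to recycling or antigen-processing routes, had 39.8, 58.6 and 49.1 CPM in IRF4-deficient libraries, against 46.6, 49.8 and 46.2 CPM in WT libraries. The WT libraries lay within the range of the IRF4-deficient ones, with a log2 fold change of 0.044 (SE 0.15, edgeR adjusted p = 0.878).

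**Figure D2:**
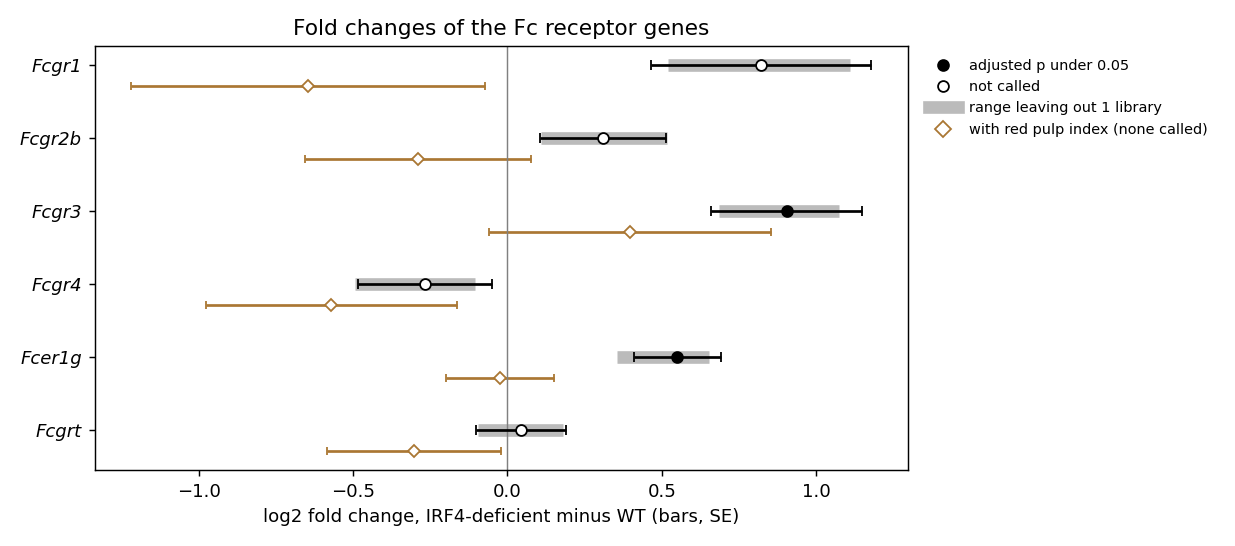
Log2 fold change of each Fc receptor gene (x axis, IRF4-deficient minus WT) with its SE. Filled circles passed the adjusted p threshold (Fcgr3 at 0.90 and Fcer1g at 0.55), grey bands span the fits that left out 1 library, and diamonds show the fit with a red pulp macrophage index as a covariate, in which no member was called.

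Levels of different genes can be compared only per length. Per kilobase of the main coding transcript, the order in WT was Fcer1g (935 ± 108 CPM per kilobase), Fcgrt (29.7 ± 1.24), Fcgr4 (17.7 ± 5.35), Fcgr2b (15.6 ± 4.59), Fcgr3 (8.57 ± 2.38) and Fcgr1 (2.25 ± 0.969). Of the neighbours in this order, Fcgr4 and Fcgr2b overlapped in WT and the others did not. In IRF4-deficient cells Fcer1g (1369 ± 298 CPM per kilobase) and Fcgrt (30.7 ± 5.87) again came first and Fcgr1 (4.04 ± 1.47) last. Fcgr2b (19.4 ± 3.15), Fcgr3 (16.2 ± 4.28) and Fcgr4 (14.7 ± 1.013) stood between them, each overlapping its neighbour in that order. The place of Fcgr2b depends on the length used: per kilobase of all its annotated exons (5790 bases, retained introns included, against 1578) it stood at 4.25 ± 1.25 in WT and 5.28 ± 0.857 in IRF4-deficient cells, below Fcgr3 at 6.65 ± 1.85 and 12.6 ± 3.32.

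The activating and inhibitory receptors were then compared within each library, where the ratio of counts does not depend on how libraries are scaled. Relative to Fcgr2b, Fcgr3 was higher and Fcgr4 lower in each IRF4-deficient library than in any WT library, and neither difference could reach the threshold of 0.05 in the exact permutation test. The Fcgr3 to Fcgr2b ratio was 0.693, 0.855 and 0.595 in IRF4-deficient libraries, against 0.405, 0.557 and 0.466 in WT libraries. These groups did not overlap, and the log2 ratio differed by 0.58. The Fcgr4 to Fcgr2b ratio was 0.752, 0.520 and 0.585 against 0.864, 0.989 and 0.857, without overlap and with a log2 difference of -0.56. The Fcgr1 to Fcgr2b ratio was 0.268, 0.318 and 0.423 against 0.212, 0.312 and 0.179, which overlapped, with a log2 difference of 0.54.

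With 3 libraries against 3, the exact two-sided permutation test cannot give a p under 0.10, so none of the 3 ratios could pass this test. This exact permutation test gave p = 0.10 for Fcgr3 and for Fcgr4 and p = 0.20 for Fcgr1, which became 0.15, 0.15 and 0.20 after adjustment over the 3 ratios. Of the 11933 other tested genes, 3.91% had a ratio to Fcgr2b that did not overlap and was higher in IRF4-deficient libraries, and 16.5% one that was lower. Summed over the 3 activating receptors, the ratio of counts to Fcgr2b was 1.71, 1.69 and 1.601 in IRF4-deficient libraries, against 1.48, 1.86 and 1.496 in WT libraries. Those values overlapped, with means of 1.67 ± 0.0587 and 1.61 ± 0.213 (SD, n = 3 each).

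**Figure D3:**
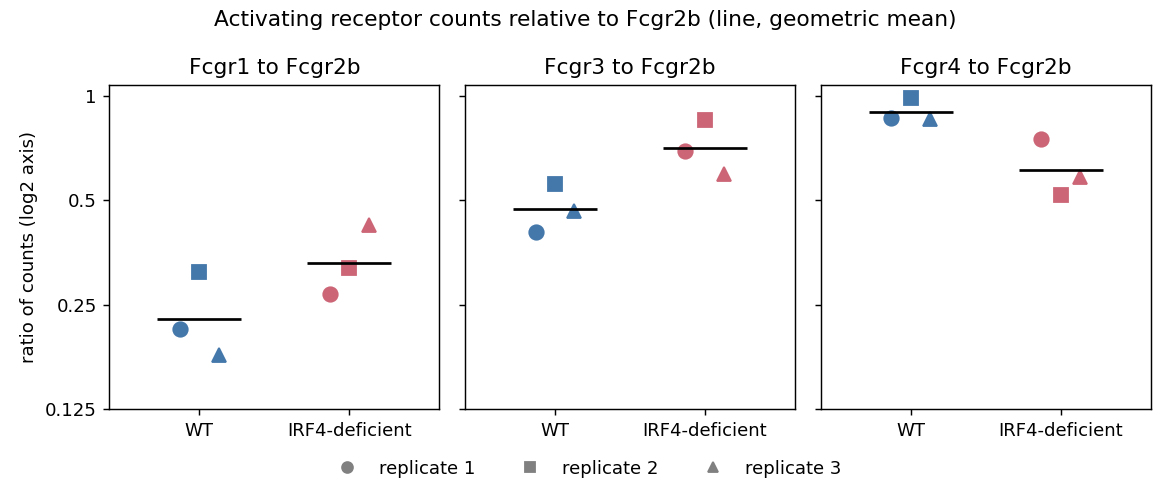
Counts of Fcgr1, Fcgr3 and Fcgr4 divided by those of Fcgr2b in the same library (y axis, log2 scale), 1 point per library and the geometric mean as a line. IRF4-deficient libraries are all above WT for Fcgr3 (0.595 to 0.855 against 0.405 to 0.557), all below WT for Fcgr4 (0.520 to 0.752 against 0.857 to 0.989) and overlap for Fcgr1.

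The levels of the Fc receptor genes followed particular libraries, and markers of red pulp macrophages differed between the genotypes. WT replicate 3 was the lowest WT library for 6 of 6 genes and the lowest of all libraries for 5, beside 34.5% and 18.4% of all tested genes. IRF4-deficient replicate 1 was the lowest of its group for 5 genes, beside 31.9% of all. Of 16 red pulp macrophage markers, all tested, 10 were called higher and 0 lower, beside 9.87% and 10.5% of all tested genes. Their summed level was 2212 to 3993 CPM in IRF4-deficient and 1262 to 1683 CPM in WT libraries. None of the 16 was at 0 in all libraries, and Spic, the factor that defines these cells, stood at 37.5 ± 7.01 CPM in WT libraries and 61.4 ± 30.01 CPM when Irf4 was deleted, with overlap. In bulk RNA, more cells of a type and more RNA per cell cannot be told apart.

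An index of 12 of these markers (mean log2 CPM) was 6.43, 6.92 and 7.34 in IRF4-deficient libraries, against 5.92, 6.10 and 5.73 in WT libraries. Like the Fc receptor genes other than Fcgrt it was lowest in WT replicate 3, and like Fcgr1, Fcgr2b, Fcgr4 and Fcer1g it was highest within its group in IRF4-deficient replicate 3. Other places differed. Among WT libraries the index was highest in replicate 2, but Fcgr2b, Fcgr4 and Fcer1g in replicate 1. Among IRF4-deficient libraries the index was lowest in replicate 1, but Fcgr4 in replicate 2. With the index as a covariate, no Fc receptor gene was called. The log2 fold change of Fcgr3 was then 0.40 (SE 0.46, edgeR adjusted p = 0.734) and that of Fcer1g -0.023 (SE 0.18, edgeR adjusted p = 0.973). The index did not overlap between the genotypes, so its part and that of genotype cannot be told apart in 6 libraries. In that fit 6.5% of all tested genes were called.

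**Figure D4:**
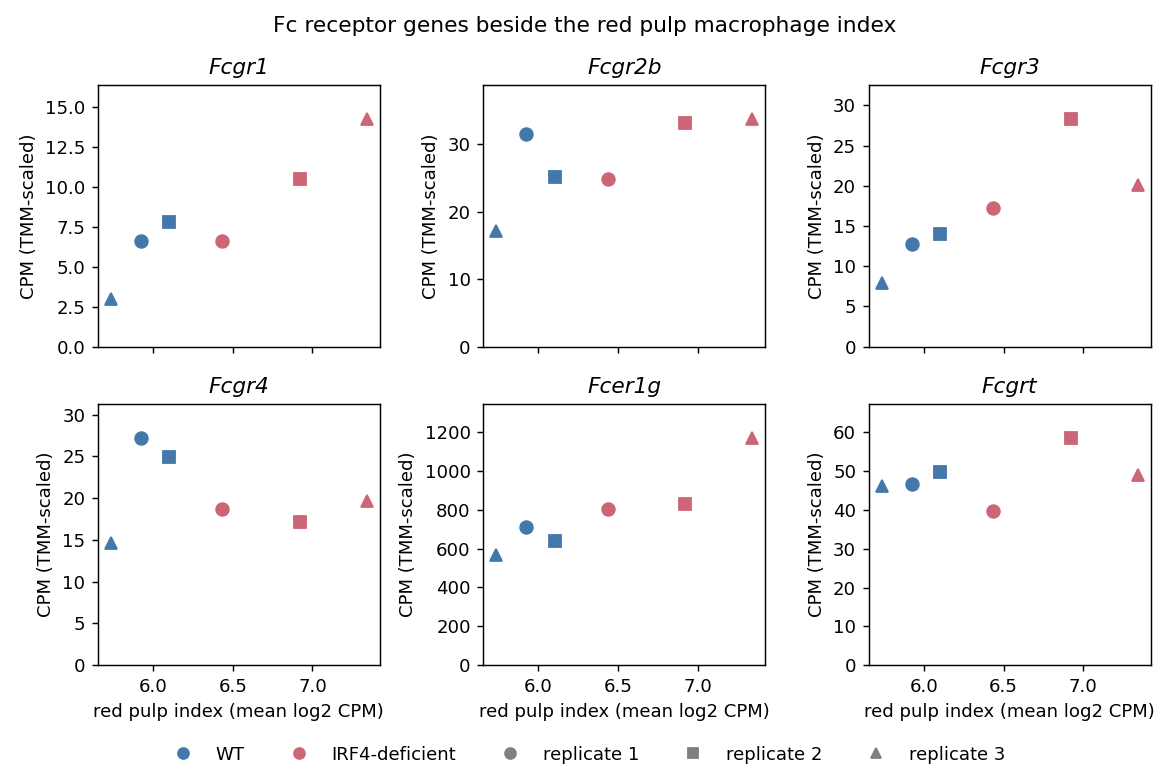
Level of each Fc receptor gene in CPM (y axis, from 0) against the red pulp macrophage index of the same library (x axis, mean log2 CPM of 12 marker genes), 1 point per library. The index spans 5.73 to 6.10 in WT and 6.43 to 7.34 in IRF4-deficient libraries, and the library with the lowest index, WT replicate 3, is the lowest for Fcgr1, Fcgr2b, Fcgr3, Fcgr4 and Fcer1g.

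Other cells that carry Fc receptors were followed through their own markers. Of 16 monocyte markers 15 were tested, 8 were called higher and 0 lower, beside 9.87% and 10.5% of all tested genes. The 16 summed to 2948 to 3784 CPM in IRF4-deficient and 1348 to 1796 CPM in WT libraries. Like the red pulp index, the monocyte sum was lowest in WT replicate 3 and highest in IRF4-deficient replicate 3. The part of monocyte markers in the Fc receptor levels was not tested. NK cell markers, of a type that expresses Fcgr3, summed to 7.45 to 14.5 CPM and 8.64 to 12.6 CPM, overlapping between genotypes. B cell markers, of a type that expresses Fcgr2b, summed to 455 to 508 CPM in IRF4-deficient and 557 to 647 CPM in WT libraries, with 1 of 12 called higher and 4 lower. Neutrophil markers summed to 35.2 to 49.3 CPM in IRF4-deficient and 14.1 to 34.5 CPM in WT libraries, without overlap. Csf3r, called higher with means of 39.0 and 18.5 CPM, made up most of these sums. Of the markers too low to be tested, S100a8, S100a9, Ngp and Camp had lower means with Irf4 deleted, and Ltf and Mmp8 higher ones. Mast cell and basophil markers summed to 1.11 to 2.84 CPM in IRF4-deficient and 7.38 to 11.6 CPM in WT libraries. Their part in the Fc receptor levels was not tested.

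Fc receptors and Fc receptor-like genes outside the 6 gave 3 genes called lower and 0 higher of 7 tested. Over all tested genes 10.5% were called lower and 9.87% higher. The median log2 fold change of these 7 was -0.35. Fcrl1, a receptor-like gene typical of B cells, fell from 95.3, 108 and 83.9 CPM in the WT libraries to 52.6, 48.6 and 60.2 CPM in the IRF4-deficient ones, with groups apart (log2 fold change -0.83, SE 0.13, edgeR adjusted p = 8.55e-05). Fcrl6 fell 2.93-fold, with WT replicate 3 at 27.04 CPM and the other WT libraries at 8.30 and 10.1 CPM. Its call was lost without that library (edgeR adjusted p = 0.10) and without IRF4-deficient replicates 2 or 3 (0.0671 and 0.0509). Trim21, the cytosolic Fc receptor that targets antibody-bound virus for degradation, fell 1.46-fold from 96.2 ± 9.62 to 65.9 ± 6.76 CPM. The summed B cell markers were lower as well, and their part in the Fcrl1 and Fcrl6 levels was not tested.

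Signalling chains that resemble or partner the gamma chain were not called, 0 of 4, beside 20.4% of all tested genes. Tyrobp, which encodes the related ITAM adaptor DAP12, had means of 588 CPM with Irf4 deleted and 515 CPM in WT (edgeR adjusted p = 0.135), and B2m, the light chain of the neonatal receptor, at 7780 and 7170 CPM. Cd247, the zeta chain that can replace the gamma chain in lymphocytes, stood at 1.009 and 1.64 CPM and was chosen after its values were seen.

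Kinases and regulators next to the ITAM were called in both directions, 5 higher and 2 lower of 9 tested. Over all tested genes 9.87% were called higher and 10.5% lower. The list's median log2 fold change was 0.23. The Src family kinase genes Fyn and Fgr rose 1.78- and 1.39-fold. Fyn stood at 120.7, 115 and 129 CPM in IRF4-deficient libraries, against 70.1, 66.0 and 68.7 CPM in WT libraries, with groups apart. Both were also called in the fit with the macrophage index (edgeR adjusted p = 0.0241 and 0.0363). Cblb, a ubiquitin ligase that limits such signalling, fell 1.91-fold from 304 ± 39.0 to 159 ± 32.4 CPM. Lyn, the Src family kinase that also phosphorylates the ITIM, stood at 724 and 733 CPM and was not called. Syk, outside the naming rule and chosen after its values were seen, had a log2 fold change of 0.25 (edgeR adjusted p = 0.0361) that was not called without IRF4-deficient replicates 1 or 2 or any 1 of the WT replicates (0.0535 to 0.128), nor with the replicate block (0.0526).

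Among 27 adaptors and effectors of the activating receptors 5 were called higher and 3 lower, beside 9.87% and 10.5% of all tested genes. The other 19 were not called, and the median log2 fold change of the 27 was 0.077. The phospholipase C gamma genes went opposite ways. Plcg1 fell 2.90-fold, from 37.1, 34.6 and 34.01 CPM in WT libraries to 13.6, 8.65 and 14.03 CPM in IRF4-deficient ones (edgeR adjusted p = 1.08e-05). Plcg2 rose 1.39-fold from 217 ± 8.86 to 302 ± 2.22 CPM. Lat2, an adaptor of myeloid and B cells, rose 1.67-fold, and Malt1, part of the CARD9-BCL10 complex, fell 1.30-fold. Lat, the T cell relative of Lat2, was called higher at 2.58, 1.36 and 8.57 CPM against 0.636 to 1.24 CPM. That call was lost without IRF4-deficient replicate 3 (edgeR adjusted p = 0.231), without WT replicates 2 or 3 (0.0879 and 0.0764) and in limma-voom (0.0889). T cell markers, a list that holds Lat, summed to 139 to 186 CPM in IRF4-deficient and 114 to 137 CPM in WT libraries. Tcf7 made up most of these sums, with means of 123 and 90.2 CPM. Cd3e (7.26 against 3.38 CPM) and Cd3d (3.65 against 5.54 CPM) went opposite ways, neither of them called. The part of T cell markers in the level of Lat was not tested.

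Of the genes that act below the ITIM, 2 were called higher and 1 lower of 8, beside 9.87% and 10.5% of all tested genes. The median log2 fold change of the 8 was 0.16. Dok3, an adaptor that restrains signalling in myeloid and B cells, rose 3.81-fold, from 5.95, 6.36 and 1.91 CPM in WT libraries to 19.9, 13.97 and 21.3 CPM in IRF4-deficient ones. Ptpn6, the SHP-1 phosphatase gene, rose 1.26-fold from 432 ± 6.78 to 545 ± 6.81 CPM. Inpp5d, the SHIP-1 gene, fell 1.19-fold from 346 ± 12.9 to 291 ± 27.1 CPM, close to the threshold (edgeR adjusted p = 0.0493), and of the 6 fits that left out 1 library each, that without IRF4-deficient replicate 2 alone called it (0.0264, the others 0.0631 to 0.143). The DESeq2 test did not call it either (adjusted p = 0.0568), nor did the fits with DESeq2 size factors, no filter, no robust shrinkage, the replicate block or Rn45s and Malat1 removed (0.0524 to 0.0648).

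Uptake and phagocytosis genes had 4 called higher and 2 lower of 20, around a median log2 fold change of 0.11. Ncf4, a cytosolic subunit of the phagocyte oxidase, fell 2.09-fold, from 91.0, 107 and 94.5 CPM in WT libraries to 45.2, 48.9 and 46.3 CPM in IRF4-deficient ones. Snx1, a retromer sorting nexin, rose 1.81-fold, and the myosin gene Myo1f and the exchange factor gene Dock2 rose 1.48- and 1.29-fold. Cybb, the membrane subunit of the oxidase, stood at 796 and 780 CPM and was not called. Over the 75 tested genes of these lists together, 16 were called higher and 11 lower, beside 9.87% and 10.5% of all tested genes, and their median log2 fold change was 0.077. In the fit with the macrophage index these counts were 4 and 5. Of the list genes named here, Fcrl1, Fyn, Fgr, Cblb, Plcg1, Ncf4 and Snx1 were called in that fit too, and Trim21, Fcrl6, Syk, Lat, Lat2, Plcg2, Malt1, Dok3, Ptpn6, Inpp5d, Myo1f and Dock2 were not (edgeR adjusted p = 0.0632 for Plcg2 to 0.906 for Lat). The SE of these 12 genes was larger in that fit, and the index did not overlap between the genotypes. Neither calls kept or lost nor fold changes in that fit can therefore show whether the index accounts for a difference. The log2 fold change was nearly as large or larger for Trim21 (-0.55 in both fits, SE 0.12 and 0.25), Syk (0.25 and 0.30), Plcg2 (0.48 and 0.51), Ptpn6 (0.34 and 0.37) and Inpp5d (-0.25 and -0.23). It was closer to 0 for Lat (2.30 and 0.38), Fcrl6 (-1.55 and -0.80), Malt1 (-0.38 and -0.21), Dok3 (1.93 and 1.55), Lat2 (0.74 and 0.58), Myo1f (0.57 and 0.41) and Dock2 (0.37 and 0.30).

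**Figure D5:**
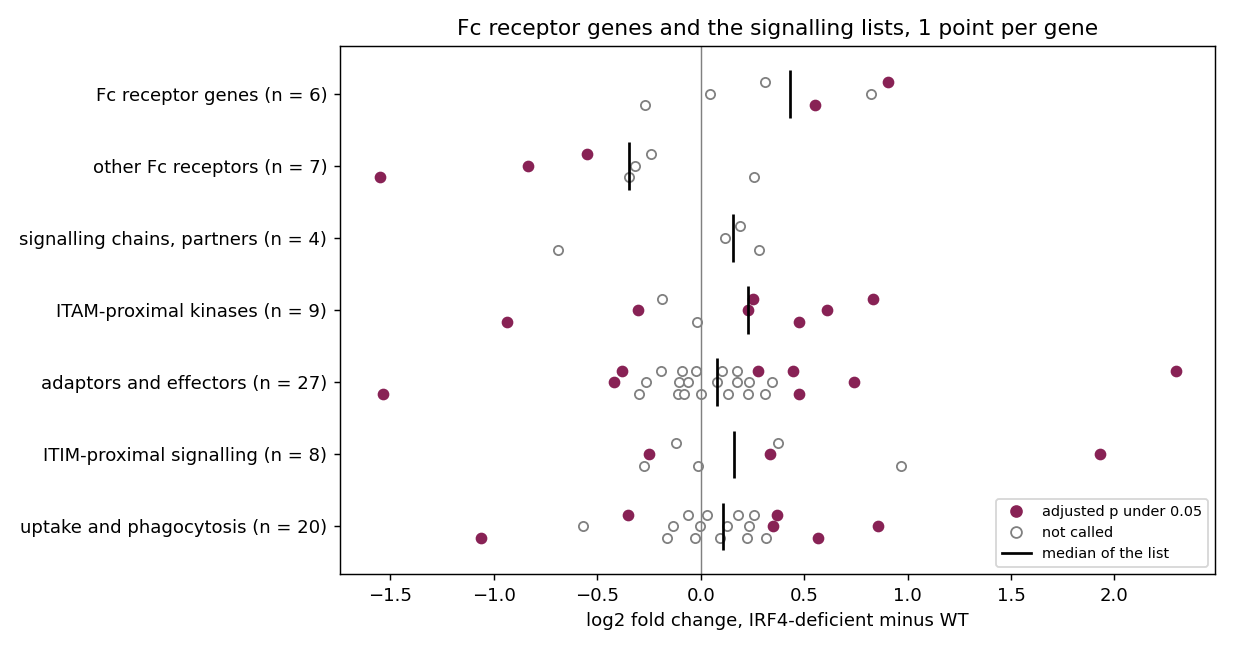
Log2 fold change (x axis, IRF4-deficient minus WT) of each tested gene in the Fc receptor set and in the lists of other Fc receptors, signalling and uptake genes, 1 point per gene, filled where called, with the median of each list as a line. Calls go both ways in the kinase, adaptor, ITIM and uptake lists, in the list of other Fc receptors the 3 called genes are all lower, and the largest change among the lower ones of the adaptors is Plcg1 at -1.53.

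Promoters of the genes were searched for sequence words bound by IRF4 and its partners, because the deleted gene encodes a factor that binds such words. The RefSeq windows (GRCm38.p6) run from 250 bases before to 50 after the start, and all 6 genes matched. Searched on both strands were 6 words: the interferon-stimulated response element ISRE (GAAA, 2 free bases, GAAA), the joint PU.1 and IRF word EICE (GGAA, 2 free bases, GAAA), the joint AP-1 and IRF words AICE1 (GAAA followed by TGANTCA) and AICE2 (TTTC, 4 free bases, TGANTCA), GAGGAAGT for PU.1 and TTCNNNGAA for STAT factors. The PU.1 word can overlap the EICE word. Of 32851 promoters 3.44%, 2.72%, 0.1248%, 0.119%, 3.20% and 8.30% held them, in this order. The window of Fcgr2b (chr1:170976022-170976321, minus strand) held 1 EICE word on its opposite strand, 35 bases before the start, in capitals.
Fcgr2b: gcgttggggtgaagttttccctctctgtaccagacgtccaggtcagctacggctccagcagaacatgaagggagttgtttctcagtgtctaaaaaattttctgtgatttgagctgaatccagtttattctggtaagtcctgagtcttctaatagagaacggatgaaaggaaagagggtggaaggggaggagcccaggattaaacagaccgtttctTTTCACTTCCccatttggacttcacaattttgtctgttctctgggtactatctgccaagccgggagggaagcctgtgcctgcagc
The window of Fcgr4 (chr1:171018676-171018975, plus strand) held 1 ISRE word 73 bases before the start and 1 PU.1 word, on the opposite strand, 24 bases before it, both in capitals.
Fcgr4: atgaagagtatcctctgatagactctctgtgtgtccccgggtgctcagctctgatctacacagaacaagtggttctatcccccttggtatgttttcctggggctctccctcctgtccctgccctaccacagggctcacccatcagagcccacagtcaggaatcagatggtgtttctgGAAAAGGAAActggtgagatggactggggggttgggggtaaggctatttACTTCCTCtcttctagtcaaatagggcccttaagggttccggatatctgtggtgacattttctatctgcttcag
The windows of the called genes Fcgr3 and Fcer1g held none of these words, and neither did that of Fcgrt. The windows of Fcgr3 and Fcgr2b lie inside the GENCODE genes. Sequence around the GENCODE starts farther upstream, at 171064935 and 170976547, was not searched. The first of the 2 overlapping windows of Fcgr3 (chr1:171059354-171059653, minus strand) is shown for comparison.
Fcgr3: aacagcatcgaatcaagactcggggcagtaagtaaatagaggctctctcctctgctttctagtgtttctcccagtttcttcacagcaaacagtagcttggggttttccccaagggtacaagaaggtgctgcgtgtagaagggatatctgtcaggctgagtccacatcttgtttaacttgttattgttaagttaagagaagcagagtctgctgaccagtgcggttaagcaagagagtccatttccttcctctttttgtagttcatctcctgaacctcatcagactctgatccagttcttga
The window of Fcgr1 held 1 STAT word, 109 bases before the start. A match is a description of the sequence, not a site of binding.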

How the data were processed

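RNA of spleen cDC2s was sequenced. What the authors deposited is a single gene-by-library table holding raw counts. STAR, HTSeq and DESeq2 (no versions) and the build mm10 are named in the submitters' processing notes. For annotation, strand setting and row filter the sources used here state nothing. WT columns were matched to samples through the labels' source names, and no column was left unused.

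Genes were kept by filterByExpr (11934 of 14535), scaled by TMM and tested, IRF4-deficient against WT, with edgeR 4.0.16 in R 4.3.3 (glmQLFit, robust, and glmQLFTest), with Benjamini-Hochberg adjustment over all tested genes and a threshold of 0.05. The SE comes from the F statistic. Ratios used counts plus 0.5. The edgeR test was tried on simulated counts, and the other steps were not. Within a group all libraries differed by more than counting noise (chi-square per degree of freedom 7.66 to 15.9), so none was counted as a duplicate.

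Members, lists and naming rule were chosen with earlier results of these data known. Named from each list are genes called at least 2-fold, up to 4 called genes with the smallest p, and genes that were not called if they had at least 50 CPM, besides genes said to be chosen after their values were seen. A gene that this rule names is not reported here. Alternatives were DESeq2 1.42.0, limma-voom (limma 3.58.1), DESeq2 and upper-quartile factors, no filter, 5 CPM in 3 libraries, no robust shrinkage, a replicate block, the red pulp index as a covariate, removal of Rn45s and Malat1, and leaving out each library. Ratios were also computed with 10 counts added.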

Additional observations from a re-analysis of the deposited data

How the results depend on the processing

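Fcgr3 and Fcer1g were the Fc receptor genes called higher, 2 in all, with DESeq2 and limma-voom, with either other scaling and with either other filter, with Rn45s and Malat1 removed, with the replicate block and with shrinkage that was not robust, and no member was called lower under any alternative. In the fit with the macrophage index 0 were called. The log2 fold change of Fcgr3 was then 0.40, and those of Fcgr1 (-0.65), Fcgr2b (-0.29), Fcer1g (-0.023) and Fcgrt (-0.30) changed sign. The same fit called 776 genes in all, 357 higher and 419 lower, and 4 signalling genes higher and 5 lower. Leaving out each library gave 0 to 3 members called higher. Log2 fold changes then ranged from 0.69 to 1.07 for Fcgr3, 0.35 to 0.65 for Fcer1g, 0.52 to 1.11 for Fcgr1, 0.11 to 0.52 for Fcgr2b, -0.49 to -0.11 for Fcgr4 and -0.094 to 0.18 for Fcgrt, whose sign changed without IRF4-deficient replicate 2. Beyond fewer samples in these fits, the cause was not tested.

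The log2 ratio differences to Fcgr2b kept their direction in all 9 alternatives each, over 0.36 to 0.76 for Fcgr1, 0.44 to 0.71 for Fcgr3 and -0.71 to -0.44 for Fcgr4. The replicate block, with a log2 fold change of 0.92 for Fcgr3 and 0.53 for Fcer1g, changed no call of an Fc receptor gene. Deviations from the group means correlated by -0.0048, 0.051 and -0.011 across genes for equal replicate numbers 1, 2 and 3. Unequal numbers gave -0.040 to 0.041. The numbers are those of the sample titles, and such correlations cannot exclude a pairing of the samples. Of 431 alternative values for the 27 called signalling genes, 370 kept their call and direction, 61 kept the direction only and 0 changed sign. Low counts limit Fcgr1 most, with 22 counts in WT replicate 3.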

Other observations

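Fcgr3 and Fcgr4, activating receptors that sit next to each other on chromosome 1 and share the gamma chain, had opposite signs of change. The change of Fcgr4 was not called (log2 fold change -0.27, edgeR adjusted p = 0.436), and its groups overlapped. The ratio of Fcgr3 to Fcgr4 counts was 0.921, 1.65 and 1.02 in IRF4-deficient libraries, against 0.467, 0.562 and 0.542 in WT libraries (replicates 1, 2 and 3). The means were 1.195 ± 0.395 and 0.524 ± 0.0501 (SD, n = 3 each). This ratio was chosen after its values were seen and was not tested, and ratios of other genes to Fcgr4 were not computed for comparison. Counts of Fcer1g per count of the 3 activating receptors together were 18.9, 14.8 and 21.7 in IRF4-deficient libraries, against 15.3, 13.6 and 22.1 in WT libraries, which overlapped.

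Genes whose profile over the 6 libraries lay nearest to a member (root mean square difference of centred log2 CPM) were listed. Candidates were 9159 tested genes with a mean of at least 5 CPM, leaving out the members, predicted and clone-named gene models and receptor segments. For Fcgr3 the nearest were Plin2 (0.126), C1qa (0.137), a red pulp macrophage marker, and H1f0 (0.138). For Fcer1g they were Cenpo (0.0471), Dgkz (0.0557) and Lsr (0.0727). Fcgr1 lay nearest to Myo7a (0.128), Tbxas1 (0.161) and Fgd4 (0.173), and Fcgr2b to Sf3b5 (0.0509), Cmc1 (0.0557) and Ndufa7 (0.059). Fcgr4 lay nearest to Slc3a2 (0.0686), Rpl36 (0.0812) and Ube2o (0.087), and Fcgrt to Cwc25 (0.0346), Sgms1 (0.0458) and Chid1 (0.047).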
